A study of Mus musculus with 9 samples.

Results

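The features described are 9267 array probes aimed at stretches of the mouse genome that the array names only by chromosome, start, end and strand. They were chosen by that form of name and kept when their signal was well above background on at least 3 of 9 arrays. They come from 16181 such probes, and from 37742 kept probes of all kinds out of 55681. The 9267 probes stand for 3690 intervals counted by strand, at 2872 positions of the mm9 build. Their working name, unannotated intergenic transcripts, could not be checked here, because the genes around each interval were not analysed. They are therefore called chromosome intervals, with the letter F or R for the strand given in the feature's name.

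The RNA came from J1 mouse embryonic stem cells of the 129S4/SvJae strain, adapted to gelatin and grown without feeder cells in serum replacement medium with leukaemia inhibitory factor (LIF) at 1000 U/mL. The 3 groups received the solvent DMSO, 3 µM CHIR99021 or 1 mM AICAR for 24 h, with 3 arrays per group, and all groups shared the line, the medium and LIF. The design asks which transcripts each compound changes against DMSO, and the compounds can also be set against each other. Nothing in the labels states whether the 3 samples of a group are independent cultures, and the p-values rest on a spread that may be only technical. Every group had its own slide and its own scan, so slide and treatment cannot be told apart.

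Long intergenic non-coding RNAs are transcripts made from the space between protein-coding genes, and most carry no long reading frame. Many were first mapped as chromosome domains bearing the histone marks of active promoters and of elongating polymerase, which gives a stretch of genome before the strand or the exons are known. In embryonic stem cells some of them help to hold the pluripotent state or to keep lineage genes silent, and others mark nearby active genes. CHIR99021 inhibits the kinase GSK3, which leaves β-catenin stable and relieves repression at Wnt target genes. AICAR is taken up and phosphorylated to an AMP mimic that activates AMPK, the sensor of cellular energy.

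All 10 embryonic stem cell markers examined were well above background on all 9 arrays. Of these 10, 3 were called higher and 3 lower with CHIR99021, and 5 higher and 3 lower with AICAR. Esrrb changed by 0.73 ± 0.05 in log2 with CHIR99021 and 0.44 ± 0.05 with AICAR, and Utf1 by -1.22 ± 0.06 and -1.16 ± 0.06. Of 10 fibroblast markers, 5 were well above background on all 9 arrays and 3 (Postn, Lum and Fap) on none. Of 8 markers of differentiated lineages, 4 were seen on all 9 arrays and Cdh5 on none, so the cells were not free of such transcripts. Of the 7 lineage markers that were kept, 4 were called higher and 3 lower with CHIR99021, and 3 higher and 2 lower with AICAR. T, a mesoderm transcription factor, rose by 8.27 ± 0.23 in log2 with CHIR99021 and changed by 0.17 ± 0.23 with AICAR. Pax6, a neural transcription factor, was at least 18.3-fold lower with CHIR99021 and changed by -3.15 ± 0.29 with AICAR, and Sox1, another, changed by -1.60 ± 0.07 and -0.99 ± 0.07. Of the 7 kept fibroblast markers, 2 were higher and 2 lower with CHIR99021 and 2 higher and 3 lower with AICAR. Among them Pdgfrb, a growth factor receptor, rose by 2.13 ± 0.07 and 2.32 ± 0.07, and the proteoglycan gene Dcn was at least 2.38-fold lower with AICAR. The part of these markers in the values given here was not tested. Over the interval probes, correlations ran from 0.982 to 0.987 within groups and from 0.934 to 0.964 between groups.

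Interval probes were dim and often unseen. Between 49.6% and 55.3% of them were well above background on a given array, 7027 of the 16181 on all 9 arrays and 5371 on none. Signals are given as log2 of the processed signal minus the array's 75th percentile over all probes that are not controls, so 0 marks that percentile. The mean over the arrays ran from -7.30 to 8.58 with a median of -3.72, and 43.5% of the interval probes fell in the lowest quartile of signal against 19.0% of the other kept probes. At the edge of the filter, the 420 probes seen on 3 arrays had a median signal of -6.11, and the 460 seen on 2 arrays, which were left out, a median of -6.36. Over all signals together, noise was larger too. The median standard deviation between the arrays of a group was 0.13 (DMSO), 0.15 (CHIR99021) and 0.17 (AICAR) for interval probes. For the other kept probes it was 0.07, 0.08 and 0.11. At like signal the sets were close. From the lowest to the brightest quartile, median standard errors with CHIR99021 were 0.225, 0.111, 0.078 and 0.069 for interval probes. The other kept probes had 0.229, 0.106, 0.072 and 0.061.

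The intervals with kept probes were 62 to 533972 bp long with a median of 11457 bp, 686 of them shorter than 1 kb and 147 longer than 100 kb. Probes on strand R were kept more often than probes on strand F, 60.4% against 54.2%. Most intervals held several probes: 1297 were read by 1 kept probe, 846 by a pair, 831 by 3 and the rest by more, up to 10. Where a probe lies inside its interval is not analysed here. Intervals also overlapped one another, since 1586 of the 3690 shared bases with another interval of the same strand and the whole set merged into 2768 stretches. Probes of an interval, and intervals that overlap, are therefore not independent readings.

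With CHIR99021, 3948 interval probes (42.6%) were called against DMSO at an adjusted p under 0.05, where 47.7% of all kept probes were called. They split into 2537 higher (27.4%, against 27.5% of all kept probes) and 1411 lower (15.2%, against 20.1%). A change of 2-fold or more was called for 605 probes, 296 higher and 309 lower, which is 6.53% against 7.67% of all kept probes. In 3894 of the called probes the CHIR99021 and DMSO arrays did not overlap, where 47.3% of all kept probes were called without overlap. The median change was 0.12 in log2 for interval probes and 0.04 for the other kept probes. The balance between higher and lower depended on the scaling. Of the called interval probes 64.3% were higher, and 52.5% were higher when the arrays were set to the same signal of the added E1A spike-in RNA, 56.8% after quantile normalization and 76.1% after the normexp background correction.

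With AICAR, 4577 interval probes (49.4%) were called against DMSO, where 58.6% of all kept probes were called. Of these, 2489 were higher (26.9%, against 28.8% of all kept probes) and 2088 lower (22.5%, against 29.8%). Changes of 2-fold or more were called for 1337 interval probes, 560 higher and 777 lower, which is 14.4% against 12.9% of all kept probes. Of the called probes 4470 had no overlap between the groups, against 57.8% of all kept probes. The median change was 0.08 against -0.01 for the other kept probes. Spike-in scaling moved all kept probes by 0.17 in this comparison, and the share of higher among called interval probes from 54.4% to 69.0%. Between the treatments, 4363 interval probes (47.1%, against 58.8% of all kept probes) were called. In 2676 of them the signal was higher with CHIR99021 (28.9%, against 35%) and in 1687 higher with AICAR (18.2%, against 23.8%), with 1270 at 2-fold or more (13.7%, against 14%) and 4245 without overlap between the groups (57.7% of all kept probes). This balance turned with the scaling: 61.3% of the called probes were higher with CHIR99021, and 34.5% after spike-in scaling, which moved all kept probes by -0.22.

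**Figure D1:**
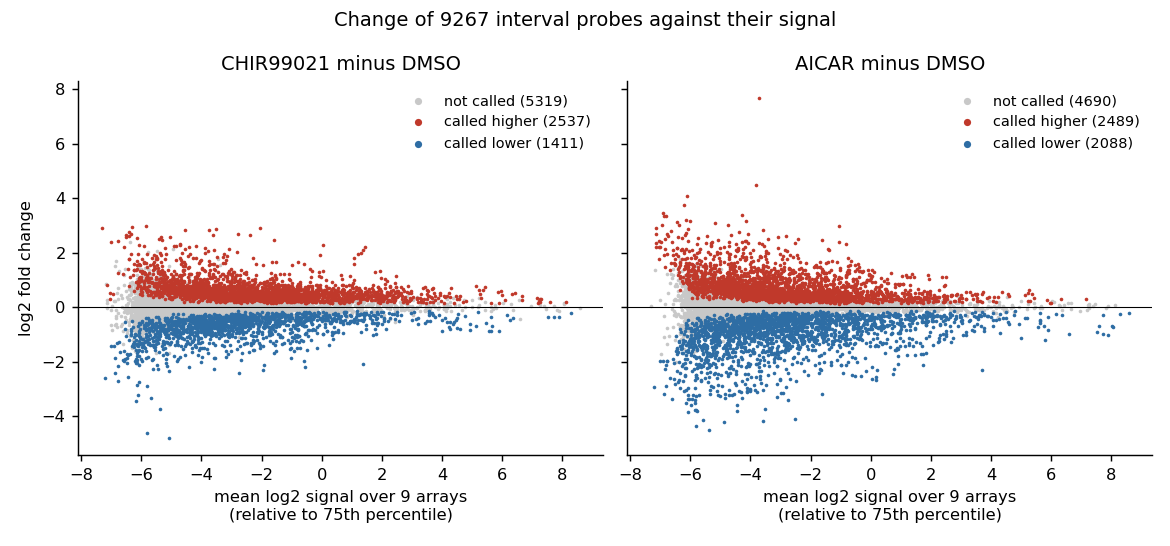
Each dot is 1 of the 9267 interval probes, with its mean log2 signal over the 9 arrays (relative to each array's 75th percentile) on the horizontal axis and its log2 fold change against DMSO on the vertical axis. Red and blue mark probes called higher and lower at an adjusted p under 0.05. Changes of 2-fold or more with CHIR99021 were called for 9.01% of the probes in the lowest signal quartile and 1.81% in the highest, and the probe drawn at 7.68 with AICAR, unseen with DMSO, is the highest. Dots include probes for which only a bound can be read.

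Because interval probes are dim, they were also set beside other kept probes of like signal. In the third quartile of signal, 45.4% of 1542 interval probes and 31.7% of 7893 other probes were called higher with CHIR99021. The brightest quartile gave 45.4% of 498 interval probes and 28.7% of 8938 others. In the second quartile the shares were close, 31.5% of 3200 and 30.3% of 6235, and in the lowest they were 15.0% and 16.7%. The shares lower with CHIR99021, from the lowest quartile to the brightest, were 10.9%, 17.3%, 20.6% and 19.9%. Among the others they were 16.2%, 25.1%, 27.3% and 17.9%. With AICAR the direction differed by quartile. From the lowest to the brightest, 19.1%, 31.9%, 37.0% and 25.9% of interval probes were higher. Among the others these shares were 26.8%, 39.0%, 35.6% and 18.9%. The shares lower were 16.9%, 24.7%, 28.6% and 35.5%, against 14.7%, 23.7%, 35.2% and 46.0% among the others. Calls at 2-fold or more were 16.9%, 13.25%, 12.9% and 6.63%, against 22.6%, 17.3%, 11.2% and 4.07%. These shares are a description of the 2 sets, and the difference between them was not tested.

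**Figure D2:**
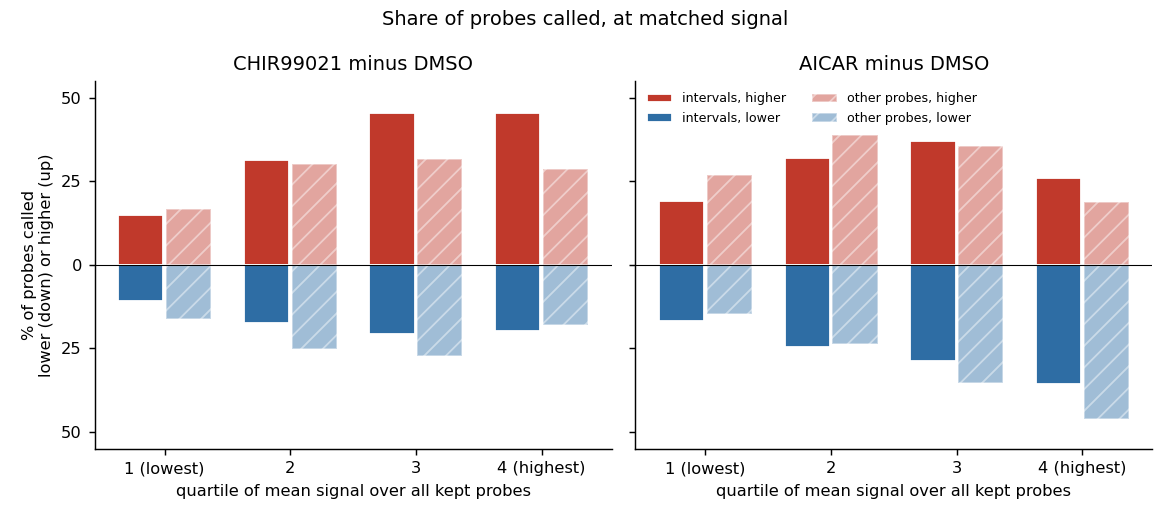
Bars give the percent of probes called higher (upward, red) or lower (downward, blue) against DMSO in each quartile of mean signal, solid for interval probes and hatched for the other kept probes. With CHIR99021 the upward bars of the interval probes reach 45.4% in both upper quartiles, where those of the other probes reach 31.7% and 28.7%. In the second quartile they reach 31.5% and 30.3%, and in the lowest 15.0% and 16.7%.

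The strength of a fold change at these signals changed with the normexp background correction, which was also run on another signal, the median foreground. With normexp, which adds an offset of 50 to every corrected signal, the count at 2-fold or more was 81 in place of 605 for CHIR99021 and 256 in place of 1337 for AICAR. Of the probes named by rule that were called, 53 of 53 kept their direction with CHIR99021 and 42 stayed called, while with AICAR 56 of 56 kept it and 53 stayed called. Where every array of a group was not well above background, a single probe gets a bound ("at least") in place of a fold, which applied to 471 interval probes with CHIR99021 and 513 with AICAR. Interval means and medians hold such probes at their measured signal, and for several intervals the median with these probes at their bound is added.

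Intervals are described by the mean of their probes on each array, with the fit repeated on such means over 27484 features. In that fit 1666 of the 3690 intervals were called with CHIR99021, 1161 higher and 505 lower, where 49.7% of all features were called. With AICAR 1810 were called, 1033 higher and 777 lower (60.5% of all features), and between the treatments 1724 (61.1%). Among 456 intervals read by at least 5 kept probes, every probe was called higher with CHIR99021 in 26 (5.7%) and every probe lower in 18 (3.95%). AICAR gave 30 (6.58%) and 43 (9.43%) such intervals. Agreement of this kind was not counted for other features, so it cannot be called particular to the intervals. Those with the widest median change in each direction were picked from the intervals called in every probe after their values were seen, beside the probes named by rule.

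Among intervals with at least 5 kept probes that all rose with CHIR99021, the widest median rise was at chr7:6210340-6229115, an interval of 18776 bp probed on both strands. On strand F its 6 probes averaged -4.71, -4.55 and -4.64 on the DMSO arrays, -2.10, -2.21 and -2.19 with CHIR99021 and -4.65, -4.72 and -4.57 with AICAR. The CHIR99021 arrays stood above all others, and the DMSO and AICAR arrays overlapped. The change was 2.46 ± 0.06 (SE) with CHIR99021 (limma, adjusted p = 1.3e-07) and -0.01 ± 0.06 with AICAR (adjusted p = 0.87). All 6 probes rose with CHIR99021, the 4 with DMSO signal by 0.72 to 2.90 and the others at least 1.64-fold and 2.60-fold. On strand R, the 5 probes averaged -5.73, -5.59 and -5.97 with DMSO, -3.64, -3.66 and -3.54 with CHIR99021 and -5.59, -5.65 and -5.49 with AICAR. All 5 rose with CHIR99021, and the change of the mean was 2.15 ± 0.10 (adjusted p = 1.9e-06). After normexp the median changes of 2.80 (F) and 2.24 (R) became 1.05 and 0.71, with every probe still called, and with unseen probes at their bound they were 2.02 and 2.13. With AICAR 1 probe was called lower on strand F and 2 higher on strand R. On each strand 4 of the probes were well above background on some DMSO array, and the rest were seen only with CHIR99021. The rest therefore passed the filter only through the CHIR99021 arrays. Their rise is no separate support, although the means and their p-values include them.

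Further intervals rose with CHIR99021 in every kept probe. The 96876 bp interval chr17:6265275-6362150 on strand R read -4.46, -4.35 and -4.47 with DMSO, -2.57, -2.55 and -2.54 with CHIR99021 and -3.41, -3.54 and -3.64 with AICAR. Its 3 groups did not overlap, and all 5 probes rose with CHIR99021 and 3 with AICAR. The changes were 1.88 ± 0.07 and 0.90 ± 0.07 (normexp medians 0.87 and 0.24). At chr4:21683562-21694344 on strand F the mean of 5 probes rose by 1.34 ± 0.06 with CHIR99021 (adjusted p = 1.7e-06, normexp median 0.69) and by 0.23 ± 0.06 with AICAR (adjusted p = 0.011), where 1 of the 5 probes was called, and none after normexp. A 14776 bp interval at chr10:39659425-39674200, strand R, went up with both compounds, by 1.64 ± 0.07 and 1.39 ± 0.07, in all 5 probes each time. Of those 5 probes, 3 were seen on a DMSO array and all 5 with each compound (normexp medians 0.46 and 0.39, the latter with 4 of 5 called). With unseen probes at their bound the medians were 1.44 and 1.32.

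Among single probes, both probes of chr8:71495043-71525582 on strand R rose with CHIR99021. One of them read -6.51, -7.82 and -6.82 with DMSO, -4.27, -3.79 and -4.31 with CHIR99021 and -7.98, -7.32 and -8.03 with AICAR. It was seen only on the CHIR99021 arrays, where its signal was at least 3.90-fold that of the DMSO arrays and at least 4.52-fold that of the AICAR arrays. The median of the pair was 1.95 with this probe at its bound and 0.58 after normexp. The 1 probe of chr19:29969050-29980675, strand F, read -5.57, -6.32 and -5.96 with DMSO, -3.22, -3.03 and -3.10 with CHIR99021 and -4.96, -4.38 and -4.29 with AICAR. Its rises of 2.84 ± 0.22 and 1.41 ± 0.22 became 0.93 and 0.30 after normexp, both still called. All 3 probes of the 1860 bp interval chr15:10697243-10699102, strand F, also rose with CHIR99021, by a median of 1.19 with 1 unseen probe at its bound (normexp 0.49).

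Falls with CHIR99021 were also read at intervals with higher signal. At chrX:135880775-135891525 on strand R, 6 probes averaged -0.88, -0.85 and -0.78 with DMSO, -2.08, -2.05 and -2.12 with CHIR99021 and -2.86, -2.87 and -2.84 with AICAR. The 3 groups did not overlap. The mean fell by 1.25 on the log2 scale with CHIR99021 (SE 0.04, adjusted p = 6.9e-07) and by 2.02 with AICAR (SE 0.04, adjusted p = 6.7e-08), and normexp medians were -0.83 and -1.61. On strand F of the same position, none of the 3 kept probes was called with CHIR99021, and AICAR gave 1 higher and 1 lower, neither still called after normexp. At chr13:19611679-19620954, strand R, 5 of 10 probes were kept. They averaged -0.79, -0.92 and -0.88 with DMSO, -1.79, -1.89 and -1.77 with CHIR99021 and -3.17, -3.09 and -3.02 with AICAR. Every kept probe fell with each compound, and the means changed by -0.96 ± 0.06 and -2.23 ± 0.06 (normexp medians -0.76 and -1.58).

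At chr8:59994074-60002058, strand F, 5 probes fell with both compounds, by 1.07 on the log2 scale with CHIR99021 (SE 0.06) and by 1.47 with AICAR (SE 0.06). The arrays read -1.13, -1.01 and -0.96 with DMSO, -2.11, -2.03 and -2.17 with CHIR99021 and -2.54, -2.45 and -2.51 with AICAR, and the normexp median with CHIR99021 was -0.77. CHIR99021 moved the 9626 bp interval chr3:21964899-21974524, strand R, further than AICAR did. Its means were -1.77, -1.70 and -1.75 with DMSO, -3.00, -3.08 and -3.04 with CHIR99021 and -2.35, -2.22 and -2.41 with AICAR, so the changes were -1.30 ± 0.06 and -0.59 ± 0.06. The difference between the compounds there was called in all 5 probes (-0.71 ± 0.06, adjusted p = 2.1e-05), and the normexp medians were -0.81 and -0.39. The bright interval chr14:26834450-26847000, strand F, fell by 0.88 on the log2 scale with CHIR99021 (SE 0.07, all 5 probes) and by 0.32 with AICAR (SE 0.07, 4 of 5). After spike-in scaling none of these 5 probes was called with AICAR.

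The widest falls with CHIR99021 were at probes that left the measurable range. Of the 5 probes of chr2:94082835-94101939 on strand R, 4 fell with each compound. One read -2.25, -2.50 and -2.45 with DMSO, -5.95, -7.81 and -7.87 with CHIR99021 and -5.33, -5.72 and -5.86 with AICAR. It was not well above background on any CHIR99021 array, so its signal was at least 14.1-fold higher with DMSO. A neighbouring probe of the interval was at least 8.11-fold higher with DMSO than with CHIR99021 and at least 8.33-fold higher than with AICAR. On strand F, 2 of 5 probes were kept, 1 of which rose with CHIR99021, though not after spike-in scaling, and none of which was called with AICAR. Of the 5 probes, 3 were unseen with CHIR99021, and with these at their bound the median was -1.38, against -0.60 after normexp with 4 probes called either way.

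At chr14:49288962-49413023, strand F, both kept probes were lost with CHIR99021 alone. The first read -4.12, -4.09 and -4.35 with DMSO, -7.99, -7.85 and -7.96 with CHIR99021 and -4.00, -3.96 and -4.02 with AICAR. It was well above background on all DMSO and AICAR arrays and on no CHIR99021 array, and its signal was at least 4.07-fold and 4.66-fold higher in those groups. The second was at least 3.08-fold higher with DMSO, and the normexp median of the pair was -0.47 with both still called. Neither was called with AICAR (0.20 ± 0.08, adjusted p = 0.061, and 0.05 ± 0.19, adjusted p = 0.83), though 1 of them was after spike-in scaling. The 81449 bp interval chr12:12768528-12849976, strand R, fell in all 3 kept probes with each compound, and none of the 3 was seen with CHIR99021. Its mean was -4.63, -4.28 and -4.15 with DMSO, -7.36, -7.22 and -7.49 with CHIR99021 and -5.88, -5.36 and -5.76 with AICAR. The 2 probes kept on its strand F rose with CHIR99021, by 0.41 and 0.45, but were not called after spike-in scaling. On strand R the 3 probes were at least 3.00-fold to 4.22-fold lower with CHIR99021, and the normexp medians were -0.34 and -0.27 with all 3 called.

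**Figure D3:**
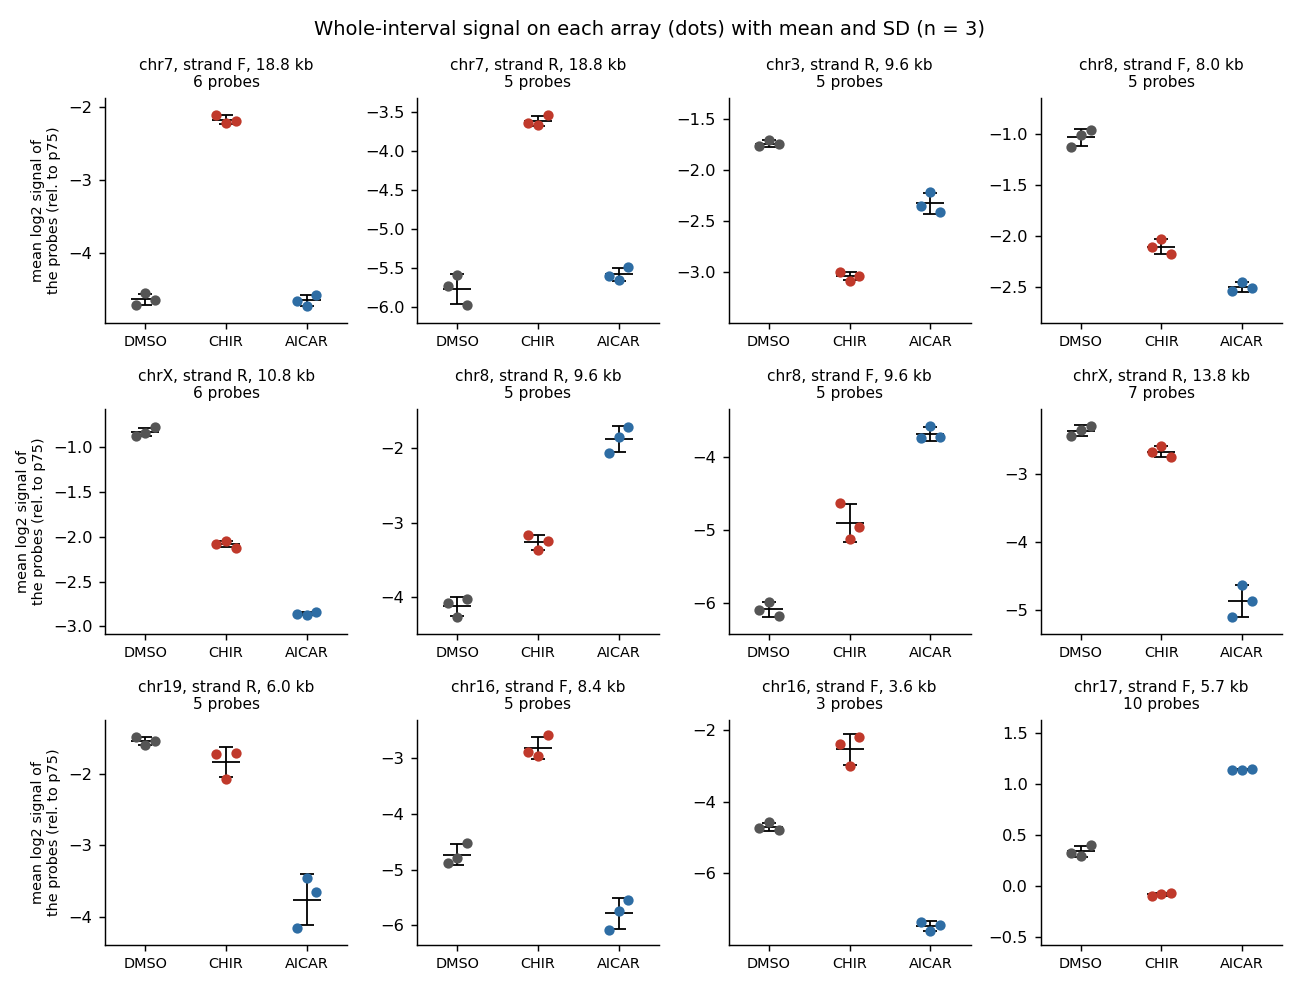
Each panel is 1 interval and strand, with dots for the 9 arrays (mean log2 signal of the kept probes, relative to each array's 75th percentile), a bar for the group mean and whiskers for the SD of 3 arrays. Vertical scales differ between panels. CHIR99021 lifts the chr7 interval on both strands, by 2.46 and 2.15, both compounds lower the 10.8 kb chrX interval, the pair of chr16 intervals goes up with CHIR99021 and down with AICAR, and the chr17 interval does the reverse.

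The highest rise with AICAR, and of any interval probe, belonged to 1 probe of chr15:85412264-85549139 on strand F. It read -6.22, -6.98 and -6.16 with DMSO, -5.69, -5.65 and -6.32 with CHIR99021 and 0.87, 1.53 and 1.27 with AICAR. It was well above background on the AICAR arrays alone, where its signal was at least 159-fold that with DMSO and at least 135-fold that with CHIR99021. The other 5 kept probes of this 136876 bp interval changed by 0.20 to 0.46, 3 of them called higher, and none of the 5 kept on strand R was called. After normexp the probe changed by 4.48. At chr11:116936834-116948799 on strand R, 1 probe rose from -5.24, -5.34 and -5.39 with DMSO to -0.89, -0.69 and -0.90 with AICAR. The other 5 changed by -0.40 to 0.63, with 4 called higher, and after normexp the first probe changed by 2.38. A rise of this size was read by 1 probe in each interval.

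Other intervals rose with AICAR in every probe. At chr12:111617728-111665403, strand R, 5 probes averaged -5.24, -5.22 and -5.11 with DMSO, -4.83, -4.93 and -5.04 with CHIR99021 and -2.93, -3.08 and -2.97 with AICAR. The AICAR arrays stood apart from the rest, with a rise of 2.20 ± 0.07 (adjusted p = 3e-07) and single probes from 1.98 to 2.37. The median after normexp was 0.81, with all 5 probes called. The interval chr8:26343277-26352902 rose on both strands. Strand R read -4.08, -4.26 and -4.02 with DMSO, -3.17, -3.37 and -3.24 with CHIR99021 and -2.07, -1.85 and -1.72 with AICAR, and all 5 probes of each strand rose with each compound. On strand F the changes were 1.18 ± 0.13 with CHIR99021 and 2.41 ± 0.13 with AICAR, and on strand R 0.86 ± 0.10 and 2.24 ± 0.10. The difference between the compounds was called in all 5 probes of each strand. Normexp medians were 0.33 and 0.33 with CHIR99021 and 0.63 (F) and 1.24 (R) with AICAR. On strand F 2 probes were unseen with DMSO, and with these at their bound the medians were 0.98 and 1.95.

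At chr4:135138014-135174889, strand R, 5 probes rose with AICAR by a mean of 1.69 ± 0.21 (adjusted p = 0.00023), and 1 of them fell with CHIR99021, a call that was lost after normexp (AICAR median 0.63). At chr16:90008636-90015586, strand R, 5 probes averaged -3.46, -3.77 and -3.62 with DMSO, -3.50, -3.38 and -3.56 with CHIR99021 and -2.24, -2.64 and -2.01 with AICAR. The rise was 1.32 ± 0.15 with AICAR (normexp median 0.76), and with CHIR99021 no probe was called, though 1 was after normexp. Short intervals rose as well. All 3 probes of the 1473 bp interval chr4:119406384-119407856, strand F, rose with AICAR, and 2 of these were seen on the AICAR arrays only, at least 2.62-fold and 2.56-fold above DMSO (normexp median 0.47). In the 1503 bp interval chr1:38892041-38893543, strand R, the 3 probes rose with both compounds, by 2.15 ± 0.13 and 2.81 ± 0.13 on average (normexp medians 0.43 and 0.58). With 1 unseen probe at its bound the medians were 1.79 and 2.40. The 3 probes of chr13:95613081-95640256, strand R, were unseen with DMSO and all seen with AICAR, with bounds of 1.70-fold to 2.53-fold above DMSO and a normexp median of 0.34.

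Several of the widest falls with AICAR ended below the measurable range. The 3397 bp stretch chr3:26975323-26978719 on strand R had all 3 probes well above background with DMSO and CHIR99021 and none with AICAR. Its leading probe read -3.65, -3.89 and -3.52 with DMSO, -4.49, -4.03 and -4.23 with CHIR99021 and -8.30, -8.09 and -8.18 with AICAR, so DMSO was at least 6.11-fold and CHIR99021 at least 4.13-fold higher. The 319 bp interval chr4:3746573-3746891, strand F, did the same, with 3 probes seen in the other groups and none with AICAR, and a bound of at least 7.97-fold for its leading probe. At chr6:31007184-31007725, strand R, the bound was 8.51-fold against DMSO, all 3 probes fell with AICAR, and none was called with CHIR99021. Its means were -3.60, -3.49 and -3.51 with DMSO, -3.62, -3.64 and -3.64 with CHIR99021 and -6.43, -6.23 and -6.15 with AICAR. After normexp the medians of these intervals were -0.34, -0.52 and -0.82, with all 3 probes of each still called.

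Longer intervals fell with AICAR over many probes. At chrX:50087925-50101700, strand R, all 7 probes fell, and the means were -2.44, -2.34 and -2.28 with DMSO, -2.67, -2.58 and -2.75 with CHIR99021 and -5.11, -4.63 and -4.88 with AICAR. The change was -2.52 ± 0.12 with AICAR (adjusted p = 1.3e-06, normexp median -1.19) and -0.31 ± 0.12 with CHIR99021 (adjusted p = 0.054), and the compounds differed in all 7 probes. Strand F of this interval went its own way: of its 6 probes AICAR raised 3 and lowered 1, the latter not called after normexp. At chr19:38392796-38398771, strand R, 5 probes averaged -1.49, -1.60 and -1.54 with DMSO, -1.73, -2.07 and -1.71 with CHIR99021 and -4.15, -3.46 and -3.66 with AICAR. The change was -2.21 ± 0.18 with AICAR, with a normexp median of -1.34. With CHIR99021 none of the 5 was called, though 3 were after normexp. The interval chr16:25517037-25531362, strand F, changed by -1.54 ± 0.08 with AICAR, in all 5 probes, and by -0.67 ± 0.08 with CHIR99021, in 4 (normexp medians -0.79 and -0.40).

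Side by side, the comparisons against the shared DMSO arrays gave 1276 probes higher in both (13.8%, against 13.6% of all kept probes) and 812 lower in both (8.76%, against 10.1%). A further 3269 were called in neither (35.3%, against 26.2%). Because both use the same 3 DMSO arrays, a stray DMSO value would move both alike, and the shared counts are given only as each comparison's own values. Higher in both by rule included chr1:38892041-38893543 above and chr10:24269165-24276690 on strand R. The latter held 5 probes that averaged -4.76, -4.37 and -4.62 with DMSO, -3.14, -3.26 and -3.30 with CHIR99021 and -2.96, -2.98 and -2.92 with AICAR. All 5 rose with CHIR99021 and 4 with AICAR (1.35 ± 0.10 and 1.63 ± 0.10, normexp medians 0.59 and 0.92). With 1 unseen probe at its bound the medians were 1.13 and 1.62, and the 1 kept probe of strand F rose with each by 1.18 and 0.73. Lower in both by rule included chr2:94082835-94101939 above and chr19:53517903-53540753 on strand R, where 7 of 9 probes fell with each compound. Its leading probe read -3.52, -3.17 and -3.41 with DMSO, -6.50, -6.48 and -5.84 with CHIR99021 and -8.17, -6.99 and -8.05 with AICAR, at least 6.47-fold and 7.63-fold lower than DMSO. The normexp medians of the interval were -0.24, with 6 called, and -0.34, with 7. On its strand F, 2 of 7 probes fell and 1 rose with each compound.

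Opposite calls numbered 216 probes higher with CHIR99021 and lower with AICAR (2.33%, against 4.18% of all kept probes) and 223 the other way (2.41%, against 4.66%). The fold change between the compounds does not use the DMSO arrays, though its standard errors and calls rest on a spread that includes them. Of its 5 largest rises, 3 lay in 1 interval, chr16:9158862-9162427. The others were at chr7:134369091-134376366, strand F, and at chr10:96098058-96098623. At the chr7 interval a probe unseen with AICAR was at least 5.73-fold higher with CHIR99021. The rest of the 3 kept probes there went the other way with AICAR, by 0.29 to 1.33 against DMSO. The neighbouring intervals chr16:9129538-9137898 and chr16:9158862-9162427, both on strand F and 32.9 kb from end to end, hold 8 probes, all higher with CHIR99021. With AICAR 7 of the 8 were lower. The first averaged -4.88, -4.79 and -4.53 with DMSO, -2.90, -2.97 and -2.60 with CHIR99021 and -6.07, -5.75 and -5.54 with AICAR. The second averaged -4.73, -4.57 and -4.79, then -2.40, -3.02 and -2.19, then -7.36, -7.62 and -7.45 in the same order. All 3 probes of the second were unseen with AICAR, and CHIR99021 exceeded AICAR by at least 27.1-fold in one probe and by at least 7.49-fold in another. After normexp all 8 rises with CHIR99021 were still called, with a median of 0.99, and 6 falls with AICAR, with a median of -0.27.

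The 566 bp interval chr10:96098058-96098623, strand F, held 3 probes that rose with CHIR99021, while AICAR lowered 2 and raised 1 (normexp medians 0.71 and -0.69). Its leading probe, unseen with AICAR, was at least 13.1-fold higher with CHIR99021 than with AICAR. In the other direction, all 3 probes of chr4:132641388-132645061, strand F, fell with CHIR99021 and rose with AICAR. Its means were -5.26, -5.21 and -4.94 with DMSO, -6.20, -6.46 and -6.47 with CHIR99021 and -4.23, -4.11 and -4.10 with AICAR. None of the 3 was well above background with CHIR99021, and after normexp none was called there, with a median of -0.09, while all 3 rises with AICAR stayed called with a median of 0.30. The same was true of chr4:148119487-148121143, strand R, where 2 of 3 probes fell with CHIR99021 and no fall was called after normexp. The median rise with AICAR was 1.64 there with 1 unseen probe at its bound (normexp median 0.46).

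The best measured interval of this opposite kind was chr17:26911397-26917047, strand F, with 10 probes on 5651 bp. It read 0.32, 0.29 and 0.40 with DMSO, -0.10, -0.08 and -0.07 with CHIR99021 and 1.13, 1.13 and 1.15 with AICAR. The 3 groups did not overlap, and 9 of 10 probes fell with CHIR99021 while all 10 rose with AICAR. The changes were -0.42 ± 0.04 (adjusted p = 0.00014) and 0.80 ± 0.04 (adjusted p = 3e-06), and the medians hardly moved under normexp, from -0.46 to -0.42 and from 0.79 to 0.74. On strand R, 5 of 6 kept probes rose with AICAR (median 0.81, normexp 0.22) and 1 fell with CHIR99021, a call that was lost after normexp.

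The strands of an interval were compared at 1067 positions probed on both, of which 818 had kept probes on both, 97 on F only, 120 on R only and 32 on neither. With CHIR99021 both strands held a probe called higher, and none called lower, at 192 positions, and the reverse at 35. The strands were called in opposite directions at 70 positions, F higher at 51 and R higher at 19. With AICAR the counts were 122, 77 and 92. The median changes of the 2 strands correlated weakly over the 818 positions, with Pearson's r of 0.24 for CHIR99021 and 0.28 for AICAR. This is a description over positions whose strands share the same arrays.

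**Figure D4:**
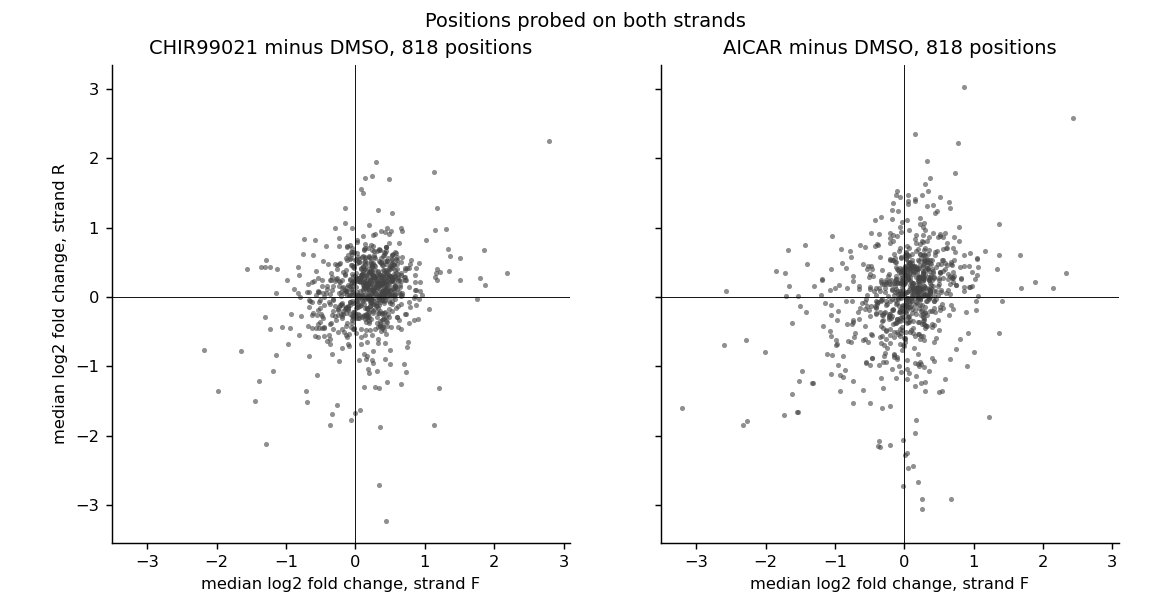
Each dot is 1 of 818 positions with kept probes on both strands, with the median log2 fold change of its strand F probes against that of its strand R probes, for CHIR99021 (left) and AICAR (right). Pearson's r is 0.24 for CHIR99021 and 0.28 for AICAR.

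The 6 positions chosen by rule for their largest single change showed how far the strands can part. At chr6:100162756-100178531 AICAR lowered 4 of 5 probes on strand R (median -2.17) and raised the fifth, and on strand F it lowered 1 of 4 and raised 1 (median -0.35). After normexp the medians were -0.69 with 4 lower and -0.09 with none called. At chr13:31736054-31781679 AICAR lowered 5 of 6 probes on strand R, with a median of -0.79 (normexp -0.37, 4 lower), and 1 of 2 on strand F. That probe of strand F read -0.95, -0.75 and -0.89 with DMSO, -1.67, -1.81 and -1.81 with CHIR99021 and -5.34, -4.83 and -4.72 with AICAR, a change of -4.10 ± 0.15 (normexp -2.31), while the other changed by 0.09. At chr13:73472571-73483846 a probe on strand R changed by -2.26 ± 0.19 with CHIR99021 and -4.19 ± 0.19 with AICAR (normexp -1.41 and -2.08) while the other 3 lay between -0.54 and 0.54 with AICAR. On strand F 1 of 6 probes was unseen with AICAR and at least 3.39-fold lower than with DMSO, and the median was -0.41 (normexp -0.11).

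Probes of one interval agreed in part. Of 2393 intervals with at least 2 kept probes, CHIR99021 raised every probe in 200 and lowered every probe in 159, gave calls in both directions in 129 and none in 710. With AICAR the counts were 268, 259, 152 and 617. No like count was made for other features read by several probes. The median range of log2 changes within an interval was 0.43 and 0.48. The widest range with CHIR99021 after chr2:94082835-94101939 was at chr6:67155508-67216941 on strand R, where 1 probe rose by 2.70 ± 0.15 (normexp 1.74) and the others lay between -1.50 and 0.57. Opposite calls of 2-fold or more within an interval were few, in 2 intervals with CHIR99021 and 7 with AICAR.

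Neighbours on a strand were joined into runs when no more than 50 kb lay between them, which gave 828 runs of at least 2 intervals. The run with the most probes was chr12:110842149-110988678 on strand F, 10 intervals with 35 kept probes over 146.5 kb, which overlap and merge into 3 stretches. Its probes averaged -2.14, -2.15 and -2.16 with DMSO, -3.35, -3.27 and -3.28 with CHIR99021 and -3.31, -3.44 and -3.33 with AICAR. DMSO arrays lay above all treated arrays, and the treated groups overlapped. With CHIR99021 29 of the 35 fell and none rose, and with AICAR 31 fell and none rose, where 20.1% and 29.8% of all kept probes were called lower. The medians were -1.26 (range -2.14 to 0.07) and -1.31 (-2.50 to -0.24). After normexp 26 and 28 probes were called lower with medians of -0.43 and -0.46, and after spike-in scaling 28 and 25.

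Within this run chr12:110894095-110899517 held 2 bright probes. They read 1.12, 1.16 and 1.25 with DMSO against -0.22, -0.15 and -0.28 with CHIR99021 and -0.18, -0.13 and -0.37 with AICAR in the first, and 0.82, 0.75 and 0.78 against -0.67, -0.71 and -0.74 and -0.51, -0.47 and -0.60 in the second. The changes were -1.40 and -1.49 with CHIR99021 and -1.41 and -1.31 with AICAR. The other probes of strand F with a higher mean signal than the second of these changed less. With CHIR99021 and AICAR in turn, a probe of chr12:110842154-110883594 changed by -1.15 and -0.45. One of chr12:110973190-110987668 changed by -0.46 and -0.61, and one of chr12:110944403-110988678 by -0.22 and -0.37. At chr12:110909258-110913909 AICAR went further than CHIR99021 in each of 3 probes, with changes of -1.75 to -1.92 against -1.23 to -1.32. One of these 3 lacked a value on an AICAR array and was fitted on the remaining 8. At the far end, probes of chr12:110967974-110969051 changed less with CHIR99021, and 1 of 3 was called (-1.08 ± 0.20). The opposite strand held 17 kept probes in 4 intervals of the run, of which 11 fell and 2 rose with CHIR99021 (median -1.09, and -0.07 after normexp with 8 lower and 3 higher). Its arrays averaged -3.59, -3.74 and -3.62 with DMSO, -4.51, -4.62 and -4.49 with CHIR99021 and -4.25, -4.38 and -4.29 with AICAR.

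**Figure D5:**
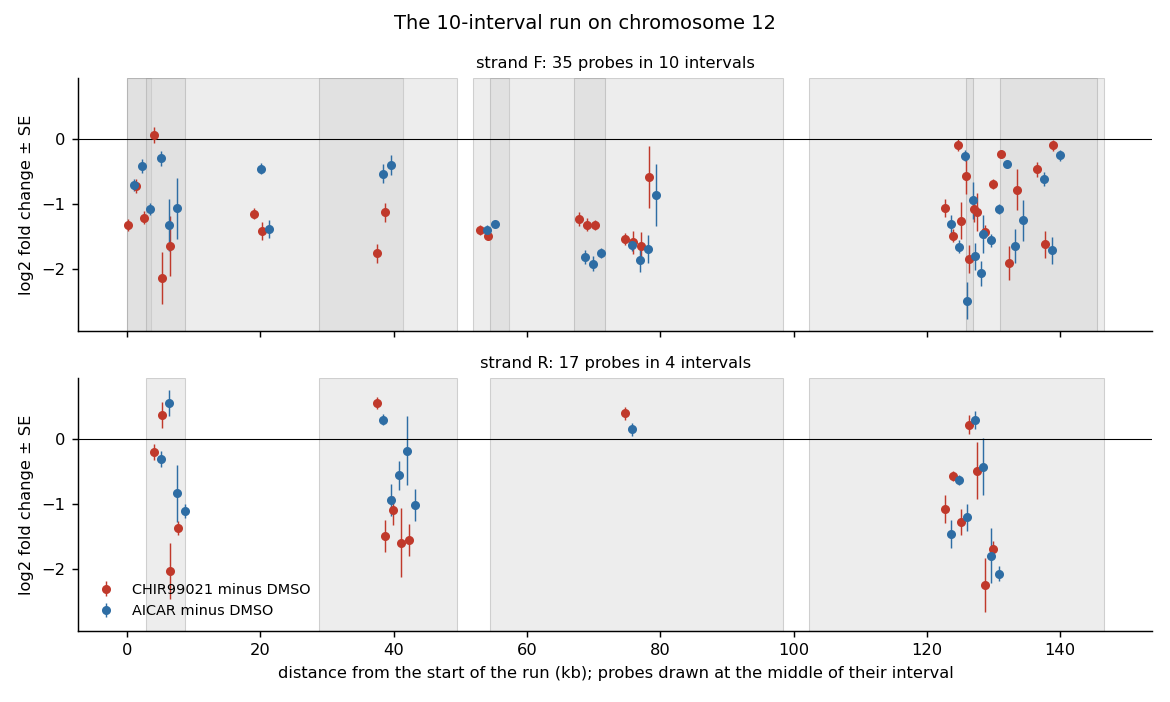
Log2 fold change against DMSO (± SE) of each kept probe of the chromosome 12 run, drawn at the middle of its interval by distance from the start of the run in kb, with strand F above and R below, and grey boxes for the intervals. On strand F nearly all dots of both compounds lie below 0, with medians of -1.26 and -1.31. Strand R is mixed, with 11 of 17 probes lower and 2 higher with CHIR99021.

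The next largest runs were mixed. On strand F of chr1:138442536-138632310, 31 probes in 9 intervals gave 6 higher and 11 lower with CHIR99021 and 13 higher and 8 lower with AICAR. Its median with CHIR99021 was -0.33, and 0.01 after normexp with 9 higher and 9 lower. Calls followed the interval: all 9 probes of chr1:138528250-138538250 rose with AICAR, and 7 of 10 at chr1:138570107-138632310 fell with CHIR99021. The run chr13:74516152-74756950 on strand R had 12 of 25 probes lower and 2 higher with CHIR99021, and 15 lower and 2 higher with AICAR (medians -0.20 and -0.33). After normexp these were 9 lower and 2 higher (median -0.13) and 10 lower and 1 higher (median -0.15), and after spike-in scaling AICAR gave 4 lower and 2 higher. On strand R of chr16:89961600-90127636, 18 of 24 probes rose and 1 fell with AICAR (median 0.57, and 0.31 after normexp with 18 higher), and 5 rose with CHIR99021. At chr15:61870759-62102500, strand F, 12 of 22 probes rose and none fell with CHIR99021, while AICAR raised 6 and lowered 9. Strand R of that run held 12 kept probes, 7 lower and 1 higher with CHIR99021 (medians 0.40 for F and -0.43 for R, and 0.27 and -0.12 after normexp). After spike-in scaling 7 of the 22 were higher.

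Some interval probes were seen in only 1 treatment. Well above background on all 3 arrays of a group and on none of the other 6 were 55 probes for DMSO (0.59%, against 0.30% of the other kept probes), 16 for CHIR99021 (0.17%, against 0.21%) and 102 for AICAR (1.10%, against 0.77%). Probes seen on all 6 arrays of the other groups and on none of a group numbered 15 for DMSO, 73 for CHIR99021 and 93 for AICAR. As shares of the interval probes, those unseen in AICAR alone were 1.00% against 0.31% of the other kept probes, those unseen in CHIR99021 alone 0.79% against 0.72%, and those unseen in DMSO alone 0.16% against 0.14%. Loss of the well above background flag depends on the level as well as on the change, and these shares were not tested.

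The share of probes called is given by interval length, without a test. From the shortest to the longest quartile of intervals, 42.3%, 42.1%, 43.5% and 42.4% of kept probes were called with CHIR99021 and 50.7%, 51.4%, 48.4% and 48.0% with AICAR. The share higher with CHIR99021 was 25.1%, 24.8%, 28.6% and 29.7%, and the share lower 17.3%, 17.3%, 14.9% and 12.7%. By strand, CHIR99021 raised 29.5% and lowered 13.4% of the probes on F, and 25.5% and 16.9% on R. Among chromosomes, the share higher with CHIR99021 ran from 19.3% to 36.6%, highest on chromosome 15 (137 of 374 probes). Chromosome 19 was the one with more probes lower (53 of 208) than higher (46).

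The brightest interval probes changed little with CHIR99021 and fell with AICAR at some places. The signals of different probes depend on the probe as well as on the RNA, so no order is read from them. The 908 bp interval chr6:116123643-116124550, strand F, read 8.06, 8.09 and 8.09 with DMSO, 8.25, 8.25 and 8.18 with CHIR99021 and 7.36, 7.37 and 7.43 with AICAR. All 3 of its probes fell with AICAR (-0.69 ± 0.04, adjusted p = 6e-06), a change that was -0.71 in median after normexp and -0.51 after spike-in scaling. At chr17:39983902-39985688, strand F, 3 probes averaged 7.89, 7.87 and 7.82 with DMSO, 7.49, 7.51 and 7.43 with CHIR99021 and 7.04, 6.74 and 6.82 with AICAR. All 3 fell with AICAR (median -0.99) and 2 with CHIR99021 (mean change -0.38 ± 0.08). The single probe of chr11:22681800-22707775, strand R, lay between 8.40 and 8.71 on all 9 arrays.

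Steady intervals were also present. The probe of chr12:73838608-73862621 on strand R chosen for its small change read 7.28, 7.44 and 7.37 with DMSO, 7.42, 7.48 and 7.29 with CHIR99021 and 7.40, 7.45 and 7.37 with AICAR, with changes of 0.03 ± 0.07 and 0.04 ± 0.07. Neighbouring intervals on chromosome 8, chr8:40100925-40196350 and chr8:40238025-40264250 on strand F, held further such probes, and over all 5 probes of the first the means changed by 0.09 ± 0.07 and 0.14 ± 0.07. The longest interval, chr3:34003359-34537330 on strand F, had 1 of 3 probes called in each comparison with DMSO, at 0.93 ± 0.11 and 0.55 ± 0.11. The shortest, the 62 bp interval chr10:83399729-83399790 on strand F, was at least 1.81-fold higher with CHIR99021 (adjusted p = 0.0075, normexp 0.31) at its 1 probe, which was unseen with DMSO.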

How the data were processed

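The deposited scanner files give spot intensities on a linear scale, made by the authors with Agilent Feature Extraction 10.7.3.1 per the file headers (10.7 in the submitters' processing notes), which also name the build mm9. The deposited series matrix holds log2 values with no centring stated per the labels, and served as an alternative. From the processed signal intensities, spots flagged as outliers were dropped, spots of a probe averaged, and log2 values centred on each array's 75th percentile. Probes well above background on 3 or more arrays (37742) entered 1 linear model per probe (limma 3.58.1, lmFit and eBayes; R 4.3.3, data.table version 1.17.8; other steps with Python 3.11.15, pandas 2.3.3 and numpy 2.4.6). A probe was called at a Benjamini-Hochberg adjusted p under 0.05 over all of them. Errors given as ± are standard errors of the fit. Interval means averaged an interval's kept probes per array before a second fit.

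The members and lists were chosen with earlier results of these data known. Probes were named by rule: among called probes whose groups did not overlap, the 10 largest rises and falls against DMSO, 5 each between compounds, 5 for each joint pattern, the 6 brightest, 4 steadiest, 6 strand pairs, 5 runs, the longest and the shortest. Chromosome 18 (290 probes) was counted but not named. Normexp used the median foreground signal. Spike-in scaling used the 8 E1A control probes well above background on all 9 arrays, and left out the ERCC controls. Further alternatives were quantile normalization, other filters, 1 probe per interval and leaving out each array. Strand letters were taken as given. A probe missing on an array (26 interval probes) was fitted on the others. On simulated data of 37644 features, the fit recovered 60 of 66 changes of 2 log2 units with CHIR99021. It recovered 49 of 67 of 1 unit and 34 of 67 of 0.5. These changes were planted in far fewer features than were called in the data, and in kept probes of all kinds. Recovery among interval probes, or with as many changes as in the data, was not tested. The number of arrays limits precision. The labels state no pairing by replicate number, and the main fit used none. Same-numbered deviations correlated at -0.05 to 0.08, with 0 of 9 pairs over 0.1, which cannot show whether such samples shared a culture.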

Additional observations from a re-analysis of the deposited data

Results flagged for a closer look

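A further 13 probes are named by a chromosome interval without a strand letter and were outside the comparisons of the report. They are given because a signal above that of the DMSO arrays was called there. At chr17:12941161-12944859, 3 of 5 probes were higher with CHIR99021, by 0.38, 1.00 and 0.61 in log2. With AICAR 4 of these 5 were called lower, 3 of them by -0.66, -0.74 and -1.25, and the other, unseen with AICAR, at least 1.28-fold. At chr3:34856791-34869544, all 3 probes were higher with AICAR, with measured differences of 1.06, 0.82 and 0.53. The second of these was well above background on the AICAR arrays alone, so only a bound of at least 1.69-fold can be read for it. The first was called lower with CHIR99021 (-0.29). At chr6:52032838-52033444, 3 of 5 probes were kept, of which 1 was called lower with CHIR99021, where it fell by 1.00 on the log2 scale, and 2 with AICAR (-0.62, and at least 1.35-fold for the second). These intervals carry no strand, and the cause of their changes was not tested.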

How the results depend on the processing

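Counts and medians are for interval probes, in the order CHIR99021 against DMSO, AICAR against DMSO and CHIR99021 against AICAR where 3 are given. Leaving out each array in turn gave 3286 to 4037, 4044 to 4584 and 3857 to 4311 called, and 0 of the 15 overall results moved by more than 1.5 times or 1 SD. A replicate block gave 3693, 4432 and 4203, and with this pairing 2 calls of named probes were lost and no overall result moved. Quantile normalization lowered the first 2 medians to 0.060 and 0.012, and the authors' series matrix values to 0.057 and 0.011. Spike-in scaling gave 1400 higher (median 0.066), 1362 lower (median 0.25) and 1162 higher (median -0.11). Normexp left 81, 256 and 213 at 2-fold or more, with a median of 0.040 for AICAR. The part of its added offset in these counts was not tested. Keeping only probes seen on all 9 arrays left 303, 766 and 695 at 2-fold or more. Without a filter, 4131 were higher with CHIR99021 against DMSO and 4333 against AICAR, and medians were 0.20, 0.030 and 0.18. One probe per interval, the brightest, gave 1818 called (1377 higher, 441 lower, 180 at 2-fold or more, median 0.21), 1831 (1128, 703, 386, 0.12) and 1718 (1181, 537, 356), over fewer features. Interval means, an alternative chosen after seeing the data, gave 1666 (1161, 505, 189, median 0.17), 1810 (1033, 777, 432) and 1724 (1094, 630, 410). A set of 136 results takes each named probe in the comparison that named it, or in all 3 where the rule named no single comparison. Of those called in the main fit, 0 reversed under the alternatives run. Many were chosen for a large change in these arrays, which makes a reversal unlikely. Changes of sign were not counted for uncalled results. The steady probe of chr12:73838608-73862621 went from 0.03 to -0.02 with CHIR99021 after normexp. Of 2537 values under alternatives, 73 lost their call, 11 of them with normexp. Probes that an alternative left out have no value among the 2537. Only 38 results stayed the same and 1 was stronger with the filter on all 9 arrays, and 49 and 1 with the brightest probe. The other results could not be read under these alternatives. The report's counts for normexp take named probes called in a comparison, whichever rule named them. There 53 became 42, 56 became 53 and 58 became 50.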
